A study of Homo sapiens with 52 samples.

Results

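Integrin and laminin subunit genes were followed through the differentiation of H1 human embryonic stem cells in retinoic acid. The genes were chosen by symbol, with earlier results of these data known. The Affymetrix HG-U133 set has an A chip and a B chip. Every probe set on them was taken that is annotated to 1 gene of the family. The family holds the integrin alpha chains, the integrin beta chains and the laminin alpha, beta and gamma chains. The choice gave 84 probe sets of 34 genes, out of 34491 probe sets that name 1 gene. Of the 34 genes, 17 encode integrin alpha chains, 7 encode integrin beta chains and 10 encode laminin chains.

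RNA came from H1 cells differentiated in 5 µM retinoic acid and taken on each of days 1 to 10, from untreated H1 cells (day 0), and from the undifferentiated lines H9 and HUES8. H1, H9 and HUES8 are established human embryonic stem cell lines, and all were grown in mTeSR medium on plates coated with Matrigel, a basement membrane extract that itself contains laminin. Biological replicates numbered 2 in each of the 13 groups and were hybridised to both chips, which makes 26 samples and 52 arrays. No untreated H1 culture of days 1 to 10 was analysed here, so retinoic acid and time in culture cannot be told apart. Nothing in the labels says whether replicates came from separate cultures or separate passages, so p-values measure the spread between these samples.

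Laminins are secreted trimers of an alpha, a beta and a gamma chain, and they form the first layer of a basement membrane. Integrins are cell surface receptors made of an alpha and a beta chain that join such matrix proteins to the actin cytoskeleton. In human embryonic stem cells the pair of alpha 6 and beta 1 is the main receptor for laminin, and alpha V with beta 5 binds vitronectin. Mouse teratocarcinoma cells are known to switch on the genes of the laminin alpha 1, beta 1 and gamma 1 chains when retinoic acid turns them into primitive endoderm.

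LAMB1 and LAMC1 encode the beta 1 and gamma 1 chains of laminin-111, and both were higher late in the course, so the 250 bases before the start of each gene are shown. Capitals mark the GC box GGGCGG, the motif of the Sp factors, on either strand. The LAMB1 window lies at chr7:108003162-108003411 on the minus strand and the LAMC1 window at chr1:183023170-183023419 on the plus strand of GRCh38.p14, both from RefSeq.
LAMB1: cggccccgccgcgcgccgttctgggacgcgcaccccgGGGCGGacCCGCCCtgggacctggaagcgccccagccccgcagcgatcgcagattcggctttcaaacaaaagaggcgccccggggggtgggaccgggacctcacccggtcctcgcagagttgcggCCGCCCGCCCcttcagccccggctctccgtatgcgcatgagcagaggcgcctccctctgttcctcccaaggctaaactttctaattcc
LAMC1: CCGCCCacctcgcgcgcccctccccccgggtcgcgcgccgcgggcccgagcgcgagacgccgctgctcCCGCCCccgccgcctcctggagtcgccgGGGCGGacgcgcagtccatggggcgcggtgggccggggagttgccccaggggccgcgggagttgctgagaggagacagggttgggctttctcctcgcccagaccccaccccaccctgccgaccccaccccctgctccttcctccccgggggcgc

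The LAMB1 window held 4 GC boxes, of which the last 2 overlap each other, and the LAMC1 window held 3. A GC box is common, being present in 42.5% of the 34943 windows of the same length in the RefSeq table. Neither window held AGGTCA, a motif bound by each retinoid receptor of a dimer, or GATAAG or CCAAT, searched on both strands. Only these exact letters within the 250 bases were searched. Variant letters and sites further from the gene start were not, so the windows do not show whether either gene has a retinoid receptor site. AGGTCA was found in 12.1% of all windows, GATAAG in 5.65% and CCAAT in 32%. Windows were found for 24 of the 34 genes, 31 windows in all, and AGGTCA was in 2 of these, 1 of ITGAV and 1 of LAMA2. A direct repeat of AGGTCA with 5 bases of any kind between the copies was in none of the 31. It was in 1 window of the whole table, so its absence from the 31 says little.

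The values are linear signal intensities, each with a detection p-value, and a probe set was called present at a detection p under 0.05. A gene entered the tests when 2 or more arrays, out of 26 per chip, called a probe set of it present, which 22 of the 34 genes passed. The 12 genes left out were ITGA3, ITGA4, ITGA7, ITGA8, ITGA11, ITGAM, ITGAX, ITGB4, ITGB7, LAMB3, LAMB4 and LAMC3. Of these, 8 were present on no array and 4 on at most 1. They include ITGA3 and ITGA7, whose chains are laminin receptors, and ITGB4, the partner of the alpha 6 chain in hemidesmosomes. LAMB3 encodes a chain of epithelial laminin-332. Signals are given as deposited, changes are differences of mean log2 signal, and a gene was called at a limma p-value adjusted over all 12202 tested genes under 0.05. Levels are not compared between probe sets, since each binds its target to its own degree.

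The undifferentiated cells carried their defining transcripts, and the signals of these were lower in day 10 cells. All 10 stem cell markers, such as NANOG and SOX2, were called lower at day 10, as were 12.5% of all tested genes. Their median change was -4.90 on the log2 scale. The 10 signals summed to between 7603 and 8837 at day 10, against between 76119 and 81190 at day 0. The share of probe sets present on an array was 44.8% to 54.2% on the A chip and 31.1% to 40.1% on the B chip. The ratio of 3' to 5' signal of ACTB, a gauge of RNA and cRNA length, was 1.89 and 1.45 at day 10 and 1.30 and 1.27 at day 0 on the A chip. On the B chip it was 1.98 and 1.59 at day 10 and 1.53 and 1.31 at day 0. H1 day 10 replicate 1 thus had the highest ratio of the 26 samples on each chip, while replicate 2 lay within the range of days 1 to 9. The same replicate 1 had the highest signal of all 26 samples for LAMA1, LAMB1, ITGAV and ITGA9, and the part of RNA length in these was not tested beyond the fits that leave the sample out or take the ratio as a covariate. In bulk RNA, fewer cells of a type and less RNA per cell cannot be told apart.

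The laminin alpha 1 and beta 1 chain genes had the lowest adjusted p-values among the 22 tested genes over the H1 days, and both rose. Across the 11 H1 days, 7 of the 22 genes (31.8%) were called by the F test, against 27.0% of all tested genes. The 7 were LAMA1, LAMB1, ITGA6, ITGAV, ITGB1, ITGB5 and ITGA5. At day 10 against day 0, 4 genes were higher (LAMB1, LAMA1, ITGAV and LAMC1) and 2 were lower (ITGA6 and ITGB5). That is 27.3% of the 22, against 25.6% of all genes, so the share of the family that was called at day 10 was near the background. By direction, 13% of all genes were called higher and 12.5% lower. The median change of the 22 genes at day 10 was 0.27, and that of all genes was 0.00. With arrays centred on control probe sets the median of all genes at day 10 was 0.13.

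**Figure D1:**
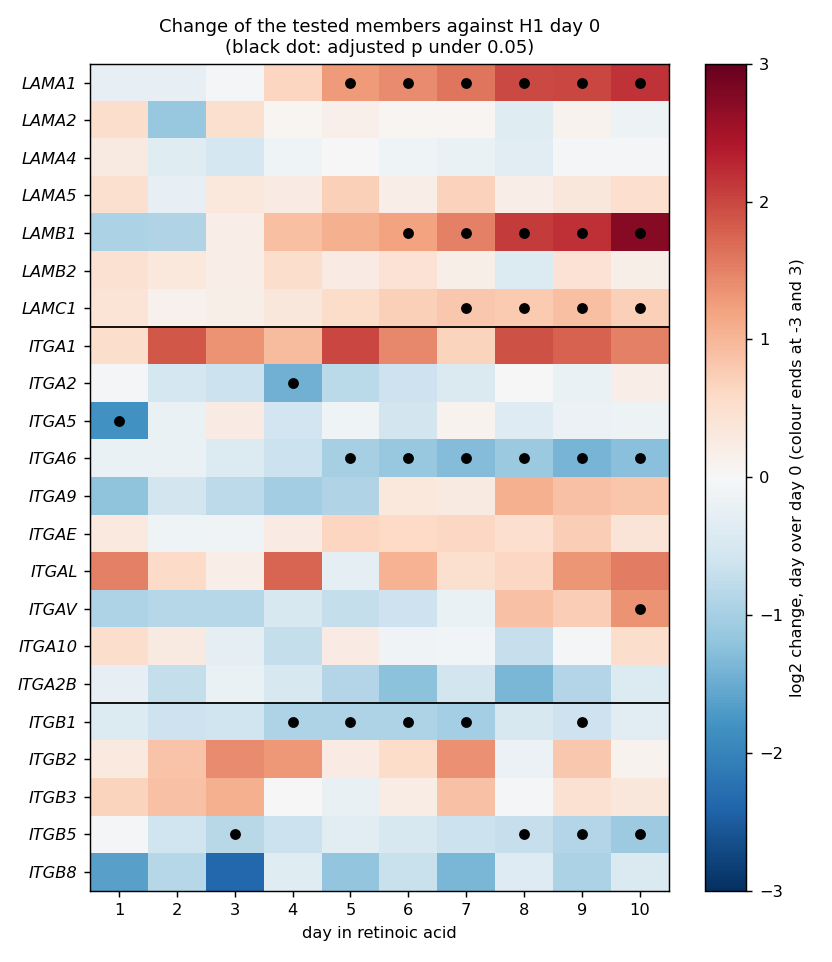
Log2 change of the 22 tested genes against H1 day 0 (colour) on each day in retinoic acid (horizontal axis), with laminin chains at the top, integrin alpha chains in the middle and integrin beta chains at the bottom; a black dot marks an adjusted p under 0.05. LAMA1 carries dots from day 5, LAMB1 from day 6 and LAMC1 from day 7, while ITGA6 carries dots in the other direction from day 5. The first dot of each of these 4 genes was lost when certain single samples were left out.

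LAMA1 encodes the alpha 1 chain, the chain that cells bind in laminin-111, and was measured on the B chip. Its signal was 1980 and 1856 on day 0, 1350 and 1929 on day 1, 1528 and 1732 on day 2, and 2228 and 1586 on day 3. It was 3835 and 2372 on day 4, 4332 and 4902 on day 5, 5277 and 4998 on day 6, and 6795 and 4951 on day 7. It was 7655 and 7579 on day 8, 9246 and 6485 on day 9, and 11289 and 6533 on day 10. From day 4 on, each sample lay above each sample of days 0 to 3. H9 had 1244 and 1730 and HUES8 had 1243 and 1700, so every undifferentiated sample lay below every sample from day 4 on.

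LAMA1 was first called on day 5, with a change of 1.27 ± 0.29 (SE, 2 samples a group, adjusted p = 0.00535), and on every later day. The day 5 call was lost when H1 day 5 replicate 2 was left out (1.18, adjusted p = 0.0526) and with arrays centred on control probe sets (1.07, adjusted p = 0.0651), while those of days 6 to 10 were kept under each alternative run. At day 10 the change was 2.16 ± 0.29, a 4.48-fold difference (adjusted p = 9.66e-06), and 1.77 with H1 day 10 replicate 1 left out. A second LAMA1 probe set, on the A chip, had 675 and 356 at day 10 and 218 and 25.5 at day 0. It was present on both day 10 arrays and on neither day 0 array. Its difference was 6.22-fold with absent signals raised to the lowest signal called present on the array (adjusted p over all probe sets = 0.0157). The same probe set was called absent on both day 5 arrays, at 266.2 and 80.0, so 6.22 is not a strict lower bound.

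LAMB1 is the beta 1 chain gene. Its signal was 748 and 767 on day 0, 406 and 383 on day 1, 421 and 390 on day 2, and 1332 and 558 on day 3. It was 2208 and 914 on day 4, 1912 and 1311 on day 5, 2141 and 1415 on day 6, and 2697 and 1705 on day 7. It was 3132 and 3349 on day 8, 3688 and 3295 on day 9, and 5202 and 4875 on day 10. The samples of days 1 and 2 lay below both day 0 samples, and from day 4 on every sample lay above them. H9 had 376 and 425, and HUES8 had 616 and 787.

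The dip of LAMB1 on days 1 and 2 did not pass the test: the changes were -0.94 ± 0.36 (adjusted p = 0.301) and -0.90 ± 0.36 (adjusted p = 0.206). The gene was called from day 6 (1.20 ± 0.36, adjusted p = 0.0299), and at day 10 the change was 2.73 ± 0.36, or 6.65-fold (adjusted p = 1.24e-05). The day 6 call was lost when either day 0 sample or replicate 1 of day 6 was left out (adjusted p = 0.114 to 0.227), with arrays centred on control probe sets (0.108), with the ACTB ratio as a covariate (0.237) and with no intensity trend (0.0603). The day 7 call was lost with replicate 1 of that day left out (1.17, adjusted p = 0.0866), and those of days 8 to 10 were kept under each alternative run. From days 3 to 7 replicate 1 had the higher signal of the pair, by more than at either end of the course. The second LAMB1 probe set had 4468 and 3838 at day 10 and 691 and 487 at day 0, a change of 2.84 ± 0.40.

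LAMC1 encodes the gamma 1 chain, which most laminin trimers share. Its signal was 1288 and 1560 on day 0, 1440 and 2484 on day 1, 1434 and 1659 on day 2, and 1639 and 1560 on day 3. It was 1499 and 2186 on day 4, 2004 and 2136 on day 5, 2040 and 2664 on day 6, and 2190 and 2868 on day 7. It was 2020 and 2949 on day 8, 2443 and 2888 on day 9, and 2731 and 1973 on day 10. All samples from day 5 on lay above both day 0 samples, by less than for the other chains of laminin-111.

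LAMC1 was called on days 7 to 10, with changes of 0.82 ± 0.25, 0.78 ± 0.25, 0.91 ± 0.25 and 0.71 ± 0.25, and its F test over the days missed the threshold. The calls of days 7, 8 and 9 were each lost when H1 day 0 replicate 1 or replicate 2 of the day itself was left out (adjusted p = 0.11 to 0.339), and with the ACTB ratio as a covariate (0.0556 to 0.122). Those of days 7 and 8 were also lost with H1 day 0 replicate 2 left out (adjusted p = 0.058 and 0.0664). The day 10 change (1.64-fold, adjusted p = 0.0414) lost its call when H1 day 0 replicate 1 was left out (0.57, adjusted p = 0.223), and likewise for replicate 2 of that day (0.85, adjusted p = 0.0736) and for H1 day 10 replicate 1 (0.48, adjusted p = 0.301). With the ACTB ratio as a covariate the day 10 change was 0.63 (adjusted p = 0.268). With no intensity trend the calls of days 7, 8 and 10 were lost (adjusted p = 0.0557, 0.0646 and 0.0698). That of day 10 was also lost with no detection filter (0.0534). The second LAMC1 probe set changed by 0.61 ± 0.23 at day 10 (adjusted p = 0.0673).

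The other laminin chain genes passed no test against day 0 on any day. LAMA5, whose alpha 5 chain is part of the laminins that support human embryonic stem cells in culture, ranged from 332 to 756 over the H1 samples. Its change at day 10 was 0.50 ± 0.30 (adjusted p = 0.244). LAMB2 encodes the beta 2 chain, which takes the place of beta 1 in some trimers, and ranged from 108.9 to 308.7. LAMA2, the alpha chain of muscle and nerve laminin, ranged from 9.94 to 168 and was present on 13 of 26 arrays. LAMA4, the alpha chain of vessel wall laminin, ranged from 72.1 to 150 and was present on 14 arrays. The day 10 changes of LAMB2, LAMA2 and LAMA4 were 0.18 ± 0.38, -0.15 ± 0.79 and -0.04 ± 0.36.

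**Figure D2:**
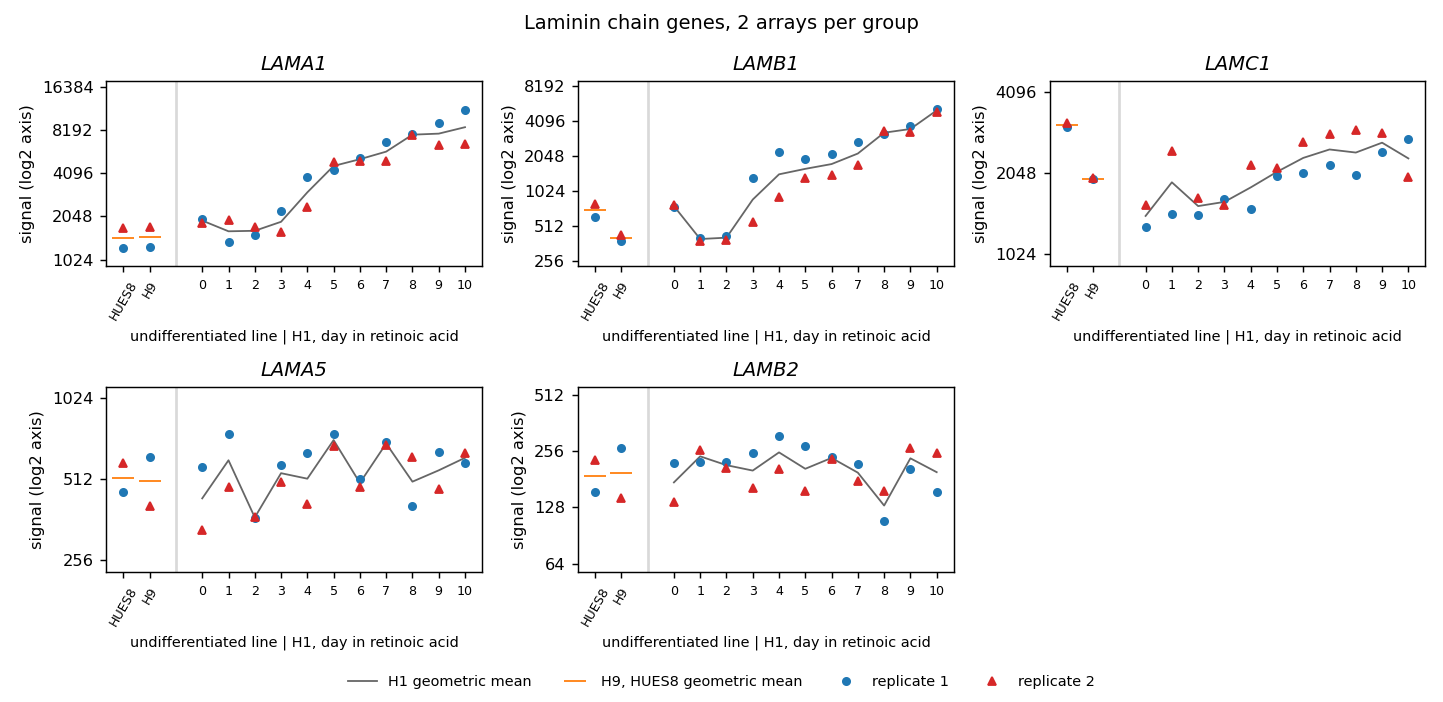
Signal (vertical, log2 axis) of 5 laminin chain genes in HUES8, H9 and H1 on days 0 to 10 (horizontal); points are replicates and the line joins the geometric means of H1. LAMA1 and LAMB1 climb to 11289 and 6533, and to 5202 and 4875, at day 10, and LAMC1 stays between 1288 and 2949 in H1. LAMA5 and LAMB2 are called on no day.

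Among the integrin alpha chains, ITGA6 fell and ITGAV rose. ITGA6 encodes the alpha 6 chain, the laminin-binding partner of beta 1. Its signal was 1488 and 1337 on day 0, 1309 and 1171 on day 1, 1400 and 1063 on day 2, and 1088 and 1042 on day 3. It was 879 and 922 on day 4, 914 and 544 on day 5, 639 and 639 on day 6, and 620 and 535 on day 7. It was 663 and 643 on day 8, 568 and 508 on day 9, and 556 and 624 on day 10. Every sample from day 6 on lay below every sample of days 0 to 4.

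ITGA6 was called lower on each of days 5 to 10 (day 5 adjusted p = 0.00314). The day 5 samples were 914 and 544, and with replicate 2 left out the call of that day was lost (-0.63, adjusted p = 0.0984), while the calls of days 6 to 10 were kept under each alternative run. At day 10 the change was -1.26 ± 0.21, so that the signal was 2.39-fold lower than at day 0 (adjusted p = 0.00016). The second ITGA6 probe set had 334 and 339 at day 10 and 550 and 620 at day 0 (-0.80 ± 0.24, adjusted p = 0.0202).

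ITGAV encodes the alpha V chain, which binds vitronectin, fibronectin and the latent form of TGF-beta through several beta chains. Its probe set had a signal of 614 and 992 on day 0, 457 and 372 on day 1, 601 and 308 on day 2, and 563 and 329 on day 3. It had 625 and 497 on day 4, 558 and 406 on day 5, 692 and 370 on day 6, and 1048 and 436 on day 7. It had 1599 and 1271 on day 8, 1451 and 1172 on day 9, and 2556 and 1534 on day 10. All samples of days 8 to 10 lay above those of days 0 to 7, and replicate 1 was the higher of the pair on each day but day 0.

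Against day 0, ITGAV was called on day 10 alone, with a change of 1.34 ± 0.40, or 2.54-fold (adjusted p = 0.0181). On days 8 and 9 its changes were 0.87 ± 0.40 (adjusted p = 0.161) and 0.74 ± 0.40 (adjusted p = 0.217). The day 10 call was lost when H1 day 0 replicate 1 was left out (adjusted p = 0.175), and likewise for replicate 1 of day 10 (0.97, adjusted p = 0.179). With the ACTB ratio as a covariate the change was 0.79 (adjusted p = 0.373).

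ITGA5 encodes the alpha 5 chain, the partner of beta 1 in the main fibronectin receptor. Its signal was 212 and 219 on day 0, 91.4 and 40.8 on day 1, 284 and 123 on day 2, and 264 and 245 on day 3. It had 132 and 160 on day 4, 205 and 186 on day 5, 147.9 and 147.9 on day 6, and 202 and 263 on day 7. It had 174 and 155 on day 8, 200 and 180 on day 9, and 156.8 and 238.5 on day 10. The day 1 samples were the lowest of the course. The later days had changes of -0.57 to 0.24 against day 0, above it only on days 3 and 7, and none was called. It was called at day 1 (adjusted p = 0.0141), but it was present on neither the day 1 nor the day 0 arrays, so no fold is given. Without H1 day 1 replicate 2, the adjusted p at day 1 was 0.188 and that of the F test was 0.187, and with arrays centred on control probe sets the F test gave 0.0544. The day 1 call was also lost with H1 day 0 replicate 1 left out (-1.84) or replicate 2 of day 0 (-1.80). In a fit of the day 0 and day 1 groups alone, the adjusted p of day 1 was 0.217.

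ITGA2, the alpha 2 chain of a collagen receptor that also binds laminin, had 251 and 153 at day 4 and 557 and 509 at day 0. This was called lower at day 4 alone (-1.44 ± 0.43, adjusted p = 0.0408). The call was lost when any of the 4 samples was left out, with changes of -1.80 to -1.08, and with the ACTB ratio as a covariate (-1.22, adjusted p = 0.109). The call was lost as well with no intensity trend (adjusted p = 0.0531), with no detection filter (0.07) and in a fit of these groups alone (0.055). By day 10 ITGA2 had 514 and 722.

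ITGA9 encodes the alpha 9 chain, a receptor for tenascin and osteopontin, and ranged from 80.7 to 1327 over the H1 samples. Its replicates parted late in the course, at 930 and 431 on day 8, 1021 and 301 on day 9, and 1327 and 222 on day 10. Replicate 1 was above its earlier days while replicate 2 stayed in their range, and the day 10 change of 0.84 ± 0.71 was not called (adjusted p = 0.432).

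ITGAE, the alpha E chain known from lymphocytes of epithelia, was present on all 26 arrays and ranged from 968 to 2618, with a day 10 change of 0.38 ± 0.29. ITGA10, a cartilage collagen receptor chain, ranged from 52.8 to 249, and ITGA2B, the platelet alpha IIb chain, ranged from 62 to 291. ITGA1, another collagen receptor chain, ranged from 1.63 to 44.5, and ITGAL, the leukocyte chain of LFA-1, ranged from 8.93 to 158. Each of these last genes, ITGA1 and ITGAL, was present on 2 of 26 arrays. None of ITGAE, ITGA10, ITGA2B, ITGA1 and ITGAL was called on any day.

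The integrin beta chains fell or did not pass the test. ITGB1 encodes beta 1, the partner of most matrix-binding alpha chains. Its signal was 7311 and 8208 on day 0, 6447 and 5284 on day 1, 5904 and 4255 on day 2, and 5382 and 4877 on day 3. It was 3725 and 4437 on day 4, 4162 and 4002 on day 5, 4690 and 3557 on day 6, and 3959 and 3615 on day 7. It was 6280 and 4894 on day 8, 5652 and 4493 on day 9, and 6739 and 5659 on day 10. All treated samples lay below both day 0 samples, and days 4 to 7 were the lowest.

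ITGB1 was called lower on days 4 to 7 and on day 9. The lowest day was day 7, at -1.03 ± 0.19 (adjusted p = 0.000715), where the signal was 2.05-fold lower than on day 0. At day 10 the change was -0.33 ± 0.19 and was not called (adjusted p = 0.239). The other tested ITGB1 probe set was present on 6 of 26 arrays with signals from 1.5 to 98.7. With the mean of both probe sets in place of the brighter, the calls of days 4 to 7 were lost (-0.39, adjusted p = 0.701, at day 4 and -1.16, adjusted p = 0.0779, at day 7). The day 4 call was also lost with H1 day 0 replicate 2 left out (-0.85, adjusted p = 0.0519) or replicate 1 of day 4 (-0.80, adjusted p = 0.0583), and the day 6 call with replicate 2 of that day left out (-0.72, adjusted p = 0.0623). The day 9 call was lost with either day 0 sample or replicate 2 of day 9 left out (adjusted p = 0.0596 to 0.239), after quantile normalization (0.05) and with the ACTB ratio as a covariate (0.0565).

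ITGB5 encodes beta 5, which forms a vitronectin receptor with alpha V. Its signal was 4491 and 4703 on day 0, 4020 and 4937 on day 1, 2897 and 3174 on day 2, and 2380 and 2773 on day 3. It had 2567 and 3366 on day 4, 3641 and 3683 on day 5, 3519 and 3055 on day 6, and 3154 and 2727 on day 7. It had 2993 and 2664 on day 8, 3007 and 2070 on day 9, and 2732 and 1693 on day 10. Every sample from day 2 on lay below both day 0 samples, with a partial recovery on day 5.

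ITGB5 was called lower on days 3, 8, 9 and 10, by -1.10 ± 0.23 at day 10, where it was 2.14-fold lower than at day 0 (adjusted p = 0.00127). The calls of days 3 and 8 were lost when any of the 4 samples was left out (adjusted p = 0.0788 to 0.207 at day 3 and 0.0937 to 0.205 at day 8), and with no intensity trend (0.0716 at day 3 and 0.0702 at day 8). That of day 9 was lost with H1 day 0 replicate 2 left out (adjusted p = 0.0603) or replicate 2 of day 9 (0.15), and that of day 10 was kept with each sample left out. Of 3 further ITGB5 probe sets, those with changes of -0.68 ± 0.19 and -1.42 ± 0.37 were also called lower at day 10. With the mean of the 4 probe sets all of these calls were lost (-0.19, adjusted p = 0.925, at day 3 and -1.02, adjusted p = 0.0882, at day 10), and the F test gave an adjusted p of 0.393. With the ACTB ratio as a covariate, the F test gave 0.0583 and the day 8 call was lost (adjusted p = 0.0569). The day 8 call was also lost with no detection filter (0.0513).

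ITGB3, the beta chain that joins alpha V in bone and alpha IIb in platelets, ranged from 28.1 to 195 and was present on 15 arrays. ITGB8, which with alpha V activates TGF-beta, ranged from 9.17 to 166 and was present on 8 arrays. ITGB2, the leukocyte beta chain, ranged from 11.9 to 114.6 and was present on 3 arrays. None of the 3 was called on any day.

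**Figure D3:**
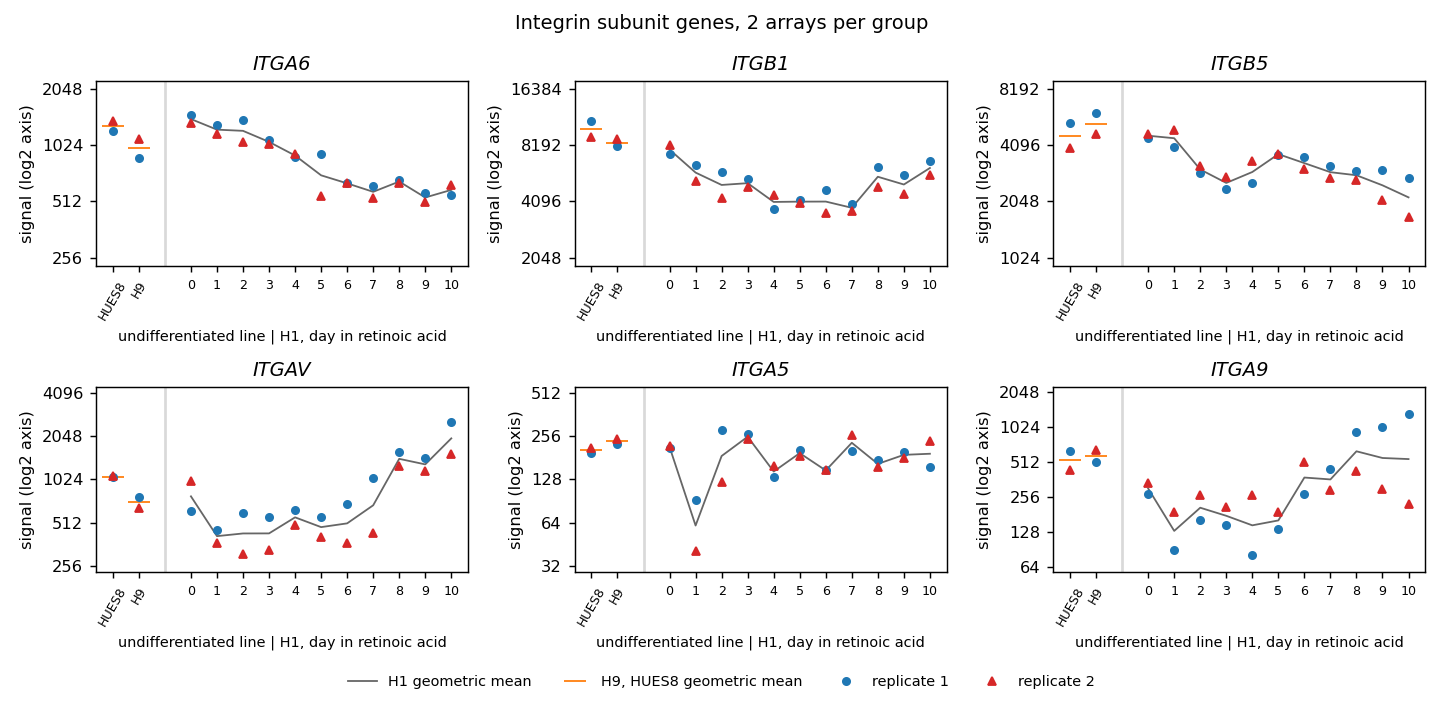
Signal (vertical, log2 axis) of 6 integrin subunit genes in HUES8, H9 and H1 on days 0 to 10 (horizontal); points are replicates and the line joins the geometric means of H1. ITGA6 declines to 556 and 624 at day 10, ITGB1 is lowest on days 4 to 7, ITGAV climbs on days 8 to 10, and the replicates of ITGA9 part to 1327 and 222 at day 10.

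More of the 22 genes were called late in the course than early in it, and the same held for all tested genes. None of the 22 was called on day 2, where 3.79% of all genes were called and 4 of the 22 had an unadjusted limma p under 0.05. On days 1, 3, 4 and 5 the family had 1, 1, 2 and 3 called genes, which is 4.55%, 4.55%, 9.09% and 13.6% of the 22, against 1.19%, 5.34%, 7.79% and 10.3% of all genes. On days 6, 7, 8 and 9 it had 4, 5, 5 and 6, or 18.2%, 22.7%, 22.7% and 27.3%, against 13.7%, 15.4%, 16.3% and 20.5%. No gene of the 22 was called higher before day 5: those called on days 1, 3 and 4 (ITGA5, ITGB5, ITGA2 and ITGB1) were all lower. Each of these calls was lost with certain single samples left out, as given above. Of all called genes, 77.9% were higher on day 1, 65.6% on day 3 and 63.3% on day 4. Centring on control probe sets changed these shares to 72.4%, 52.3% and 57%.

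Of the 22 genes, 10 had more than 1 tested probe set, 22 probe sets in all. For 8 of these 10 genes every probe set changed in the same direction at day 10. The exceptions were ITGB1 (-0.33 and 0.01) and ITGB3 (0.34 and -0.91), none of whose probe sets were called.

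**Figure D4:**
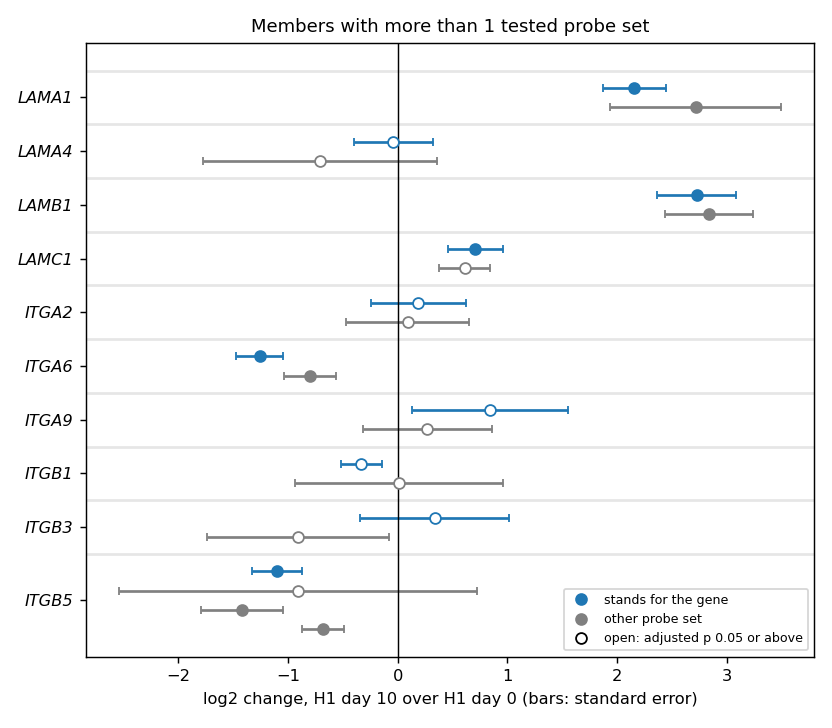
Log2 change of day 10 over day 0 (horizontal, bars are standard errors) for each tested probe set of the 10 genes that have several (vertical); filled points are called. Both probe sets of LAMA1, of LAMB1 and of ITGA6 are called in the same direction, as are 3 of 4 of ITGB5, and 1 of 2 of LAMC1.

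Days 9 and 10 were also set against days 1 and 2, which compares late with early treatment without the day 0 samples. Of the 22 genes, 8 were called (36.4%), against 37.5% of all genes: 6 were higher and 2 lower, against 19.3% and 18.2% of all genes. LAMB1 ranged from 3295 to 5202 on the late days and from 383 to 421 on the early days, a change of 3.39 ± 0.25, or 10.5-fold (adjusted p = 3.46e-09). LAMA1 ranged from 6485 to 11289 late and from 1350 to 1929 early, 5.03-fold (2.33 ± 0.20, adjusted p = 1.47e-08). ITGAV ranged from 1172 to 2556 late and from 308 to 601 early, 3.82-fold (1.93 ± 0.28, adjusted p = 2.15e-05). For these 3 genes the late and early samples did not overlap.

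ITGA6 ranged from 508 to 624 late and from 1063 to 1400 early (-1.13 ± 0.15, adjusted p = 5.67e-06), with no overlap. ITGB5 (-0.67 ± 0.16) was also lower late, and LAMC1 (0.54 ± 0.18), ITGA5 (0.84 ± 0.27) and ITGA9 (1.74 ± 0.50) were higher, and for these 4 genes late and early samples overlapped. The call of ITGA9 was lost without H1 day 9 replicate 1 (1.30, adjusted p = 0.0703) or H1 day 10 replicate 1 (1.09, adjusted p = 0.0883). That of ITGA5 was lost without H1 day 1 replicate 2 (0.55, adjusted p = 0.115), H1 day 2 replicate 2 (0.54, adjusted p = 0.127) or H1 day 10 replicate 2 (0.69, adjusted p = 0.0772). That of LAMC1 was lost without H1 day 1 replicate 1 (0.34, adjusted p = 0.139), H1 day 2 replicate 1 (0.49, adjusted p = 0.0653), H1 day 9 replicate 2 (0.48, adjusted p = 0.0757) or H1 day 10 replicate 1 (0.42, adjusted p = 0.102). With the ACTB ratio as a covariate the calls of ITGA9 (adjusted p = 0.0637) and LAMC1 (0.0915) were lost, with only these groups fitted those of ITGA5 (0.106) and LAMC1 (0.0533), and with the mean of probe sets that of ITGB5 (0.0938). Centred on control probe sets, the median of all genes in this comparison was 0.17 in place of 0.01, and 64.4% of the called genes were higher in place of 51.5%.

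Day 10 was then set against each of the 3 undifferentiated lines, and a gene was called where the largest of the 3 p-values, adjusted, was under 0.05 with the same direction in all. LAMA1 and LAMB1 were higher and ITGA6 and ITGB5 lower, which is 18.2% of the 22 genes against 14.8% of all genes (7.22% higher and 7.57% lower). Of the called genes 48.8% were higher, and 62% with arrays centred on control probe sets. Against H9 alone 5 of the 22 genes were called, where 34.5% of all genes were, and against HUES8 alone 5 were called, where 28.5% of all genes were. LAMB1 was 12.6-fold higher at day 10 than in H9 and 7.23-fold higher than in HUES8. LAMA1 was 5.85-fold higher than in H9 and 5.91-fold higher than in HUES8. ITGA6 had 556 and 624 at day 10, 873 and 1107 in H9, and 1212 and 1377 in HUES8. Its smallest difference, to H9, was -0.74 ± 0.21, and the call against all 3 lines was lost when the arrays were centred on control probe sets (-0.53, adjusted p = 0.295), with the mean of its probe sets (-0.49, adjusted p = 0.12) and with the ACTB ratio as a covariate (-0.78, adjusted p = 0.23). It was also lost without H9 replicate 2 (-0.57, adjusted p = 0.2), H1 day 10 replicate 1 (-0.66, adjusted p = 0.13) or H1 day 10 replicate 2 (-0.82, adjusted p = 0.0544).

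ITGB5 had 2732 and 1693 at day 10, 6087 and 4666 in H9, and 5393 and 3930 in HUES8. Its call against all 3 lines was lost without H1 day 10 replicate 2 (-0.75, adjusted p = 0.0686), and when its probe sets were averaged (-1.02, adjusted p = 0.132). ITGAV, at 2556 and 1534 at day 10, was called higher than H9 (771 and 649) but not than HUES8 (1059 and 1083, adjusted p = 0.107). LAMC1 had 2731 and 1973 at day 10, 1953 and 1955 in H9, and 3041 and 3134 in HUES8, so its day 10 samples lay between the lines.

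Between the undifferentiated lines no gene of the family was called by limma. In H9 against H1 day 0, 0 of 22 genes were called and 2 had an unadjusted p under 0.05, while 4.64% of all genes were called. In HUES8 against H1 day 0 the family again had 0 called and 2 under 0.05, with 0.197% of all genes called. In H9 against HUES8 it had 0 called and 3 under 0.05, with 2.61% of all genes called. Of all called genes, those higher in H9 than in H1 day 0 made up 46.3%, and 19.2% with centring on control probe sets. The shares were 41.7% and 28.6% for HUES8 against H1 day 0, and 37% and 26.4% for H9 against HUES8. The lowest adjusted p was that of LAMC1 in HUES8 (3041 and 3134) against H1 day 0 (1288 and 1560), a change of 1.12 ± 0.25 (adjusted p = 0.0859).

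The genes around the family were read from lists. Of 25 tested genes for other basement membrane and integrin ligand proteins, 9 were higher and 1 was lower at day 10, with a median change of 0.71 against 0.00 for all genes. FREM2, a basement membrane protein of epithelia, had 13212 and 8833 at day 10 and 1142 and 882 at day 0 (10.8-fold). HSPG2, the gene of perlecan, which binds laminin, had 1227 and 1285 at day 10 and 223 and 152 at day 0 (6.81-fold). NPNT, the gene of nephronectin, a ligand of the alpha 8 beta 1 integrin, was at least 7.32-fold higher, and FREM1 at least 7.58-fold. The integrin alpha 8 gene itself, ITGA8, was present on at most 1 array.

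Of 19 tested genes for the cytoplasmic proteins that tie integrins to actin, 6 were higher and 4 lower at day 10, with a median change of -0.10. NEDD9, an adaptor of focal adhesions, had 1086 and 1085 at day 10 and 190 and 190 at day 0 (5.72-fold higher). The tensin genes TNS3 (4.14-fold) and TNS1 (at least 3.81-fold) were higher. VCL, the gene of vinculin, had 2635 and 3067 at day 10 and 9100 and 7327 at day 0 (2.87-fold lower).

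Of 10 tested genes for other laminin receptors and integrin-binding tetraspanins, 4 were higher and 1 was lower at day 10, with a median change of 0.32. CD9, a tetraspanin that associates with integrins, had 776 and 299 at day 10 and 3958 and 5212 at day 0 (9.42-fold lower). SDC4, a syndecan of focal adhesions, was 3.08-fold higher, SGCE, a sarcoglycan, was 2.04-fold higher, and BCAM, a laminin alpha 5 receptor, was 2.03-fold higher. Of 4 tested genes of latent TGF-beta, which alpha V integrins activate, 1 was called: LTBP1 was 3.69-fold higher, and the list's median was 0.09.

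Markers of other cell types were also compared between day 10 and day 0, and the direction of change differed between lists. Of the tested markers, 7 of 8 for simple epithelium, 4 of 7 for definitive and visceral endoderm, 5 of 6 for trophoblast, 5 of 8 for neural crest, and 4 of 9 for mesenchyme and fibroblast were higher. The endoderm factor GATA6 was at least 46-fold higher, the trophoblast factor GATA3 at least 49.7-fold higher, and the keratin gene KRT19 8.32-fold higher. Of the lists for neural crest, mesenchyme and simple epithelium, 1 gene each was lower. The summed signal for simple epithelium was 85003 to 86994 at day 10, against 23717 to 25270 at day 0. For endoderm it was 3568 to 5699 at day 10, against 507 to 583 at day 0, and for trophoblast 5936 to 7486 at day 10, against 794 to 821 at day 0. For neural crest it was 4915 to 8858 at day 10, against 661 to 884 at day 0, and for mesenchyme 24485 to 30335 at day 10, against 12063 to 14433 at day 0.

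Of the 6 tested genes for parietal endoderm and basement membrane secretion, a list that holds LAMB1 itself, 3 were higher and 1 was lower, and the sum was 16076 to 17483 at day 10, against 9754 to 11055 at day 0. For smooth muscle the markers gave 1 higher and 2 lower of 4, with a sum of 2103 to 2426 at day 10, against 5089 to 5746 at day 0. TAGLN alone had 844 and 925 at day 10 and 3891 and 4751 at day 0, while LMOD1 was higher. For neural cells they gave 2 higher and 3 lower of 9, with a sum of 5779 to 7526 at day 10 and 22683 to 25220 at day 0. TUBB3 alone had 3090 and 3066 at day 10 and 19697 and 22578 at day 0, while DACH1 and ZIC1 were higher. A sum is led by its brightest probe sets. Of 9 endothelial genes 4 were tested, and 1 was lower, with a sum of 400 to 626 at day 10 and 1159 to 1336 at day 0. Of 10 blood genes 3 were tested, and 1 was higher, with a sum of 720 to 884 at day 10, against 537 to 539 at day 0. No probe set of the defining genes PECAM1, VWF and PTPRC was present on 2 or more arrays. The part of any of these cell types in the changes of the integrin and laminin genes was not tested.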

How the data were processed

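The authors deposited 1 intensity (signal) and 1 detection p-value per probe set and array, made with MAS5 (version not given) per the submitters' processing notes; 52 columns of calls were not used. Here the signal was taken to log2 with no further scaling. Probe sets were named by the array annotation and matched to RefSeq by gene identifier. Among the probe sets of a gene present on 2 or more of 26 arrays, the brightest by mean log2 signal stood for the gene, with cross-hybridising (x) sets taken last. Group means were fitted per chip in limma 3.58.1 (R 4.3.3; trended empirical Bayes, 13 residual degrees of freedom), with two-sided p-values and Benjamini-Hochberg adjustment across both chips.

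Where the lower group was present on neither array, the fold is written as at least. It was taken against, per array, the higher of the lowest signal called present and the gene's own signal. That floor belongs to the array and not to the probe set, which can be absent at a higher signal, so the true fold could be smaller. The script was tested on simulated data. Replicate numbers were not used as pairs in the main fit. The deviations of same-numbered samples correlated by -0.09 to 0.37 between groups on the A chip (median 0.05) and by -0.05 to 0.31 on the B chip (median 0.06). Some pairs of groups thus shared part of their deviations, and a fit with a replicate block was run as an alternative. Genes were named by fixed rules: each tested member with its range, values per sample for those called over the days, and up to 4 called genes per list by size of the day 10 change. The members and lists were chosen with earlier results of these data known. With 2 arrays per group, their number limits the precision.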

Additional observations from a re-analysis of the deposited data

How the results depend on the processing

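The rises of LAMA1 and LAMB1 and the fall of ITGA6 at day 10 against day 0 kept their call under every alternative run, at 1.65 to 2.56, 2.14 to 2.88 and -1.36 to -1.03. No called change reversed under any alternative. Of the 572 recomputed values of single genes under the 11 other settings 44 lost their call, and of the 382 with 1 sample left out 56 did. The cause was not tested. The low signals of ITGA1, ITGAL and ITGB2, present on 2 or 3 arrays, limit what the arrays can show for them.

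Counts of called genes moved as follows. Fitting only the groups compared gave 0 at day 1 in place of 1, 1 at day 4 in place of 2, and 1 in place of 0 for each pair of undifferentiated lines. Without the intensity trend the counts were 0 at day 3 (1), 1 at day 4 (2) and 3 at day 8 (5), with the count of the main setting in brackets. With the mean of a gene's probe sets they were 0 at day 3, 1 at day 4, 2 for day 10 against all 3 lines (4), and 1 for H9 against H1 day 0 (0). Testing every probe set gave 1 at day 2 (0) and 1 for H9 against H1 day 0. Without the detection filter there was 1 at day 4. With the ACTB ratio as a covariate there were 1 at day 4 and 3 at day 8, and over all genes 14.1% in place of 25.6% were called at day 10. The replicate block gave 1 at day 2, 2 at day 3 and 1 for HUES8 against H1 day 0 (0), and left the other counts within 1.5 times.

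Leaving out 1 sample at a time gave 0 to 1 called genes at day 1, 0 to 1 at day 2, 0 at day 3, 0 to 2 at day 4, 1 to 3 at day 5, 3 to 4 at day 8, 3 to 6 at day 9 and 2 to 4 for day 10 against all 3 lines. Where a group was left with 1 sample, that sample was assumed to vary like the others.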
